A study of Mus musculus with 6 samples.

Results

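The genes of retinoic acid signalling and meiotic entry were examined in embryonic mouse ovaries exposed to the histone deacetylase inhibitor panobinostat (PB). They were chosen by name: *Stra8*, *Rara*, *Rarb*, *Rarg*, *Aldh1a1*, *Aldh1a2*, *Aldh1a3*, *Cyp26a1*, *Cyp26b1* and *Crabp1*, which makes 10 of the 35974 gene names and 36 of the 114412 transcripts in the count table. Inbred C57BL/6J dams received PB at 5 mg/kg by gavage between E6.5 and E15.5 (embryonic days), and control dams received the DMSO and water in which PB was given. The sources differ on whether the dose was daily or on alternate days. Ovaries were collected at E15.5, and polyadenylated RNA of 3 control pools and 3 PB pools was sequenced with a strand-specific protocol. One label puts 4 ovaries in each pool and other descriptions give more, so the pool size is uncertain. The pools held between 97165644 and 125985399 counts each. The markers of the ovary were present: all 7 of pregranulosa cells were detected, with a summed normalized count of 1311 to 1413 in control and 1256 to 1436 in PB pools, and the 5 Sertoli cell markers of the testis summed to 25.6 to 35.4 and 25.1 to 27.6. The Sertoli sum includes *Dmrt1*, which also acts in the fetal ovary, so it does not read Sertoli cells alone. *Dmrt1* had 16.9, 10.1 and 16.6 in control pools and 10.3, 9.41 and 10.5 in PB pools. Markers of the neighbouring mesonephros summed to 153 to 167 and 144 to 164. Those of red blood cells summed to 15040 to 31939 and 18352 to 20109.

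Retinoic acid is made from retinol through retinaldehyde, and the last step is carried out by the retinaldehyde dehydrogenases of the ALDH1A family. In the cell it meets binding proteins such as CRABP1, is broken down by the CYP26 enzymes, and acts on RAR receptors, which bind DNA as partners of RXR. In the fetal ovary *Stra8* is switched on in germ cells as they enter meiosis, and it is the gene most often used to read out retinoic acid and other meiosis-inducing signals in these cells.

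None of the 10 genes passed a threshold of 2-fold change with a false discovery rate (FDR) of at most 0.05 (edgeR quasi-likelihood test), where 0.0154% of the 19435 genes tested did. All 10 were detected and tested, 5 were higher and 5 lower in PB pools, and their median log2 fold change was 0.01, against 0.00 for all genes tested. One of them, *Aldh1a2*, had an unadjusted p under 0.05, a level that 4.46% of all genes reached, 2.03% with PB higher and 2.43% with PB lower. DESeq2 also called 0 of the 10, against 0.0414% of all genes, and gave 1 at that level, against 3.65%. The pools of the groups did not overlap for 2 of the 10 genes and for 10.7% of all genes. In the plot of fold changes, 9 of the 10 intervals lay inside a 2-fold change in either direction, and that of *Cyp26a1* did not.

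**Figure D1:**
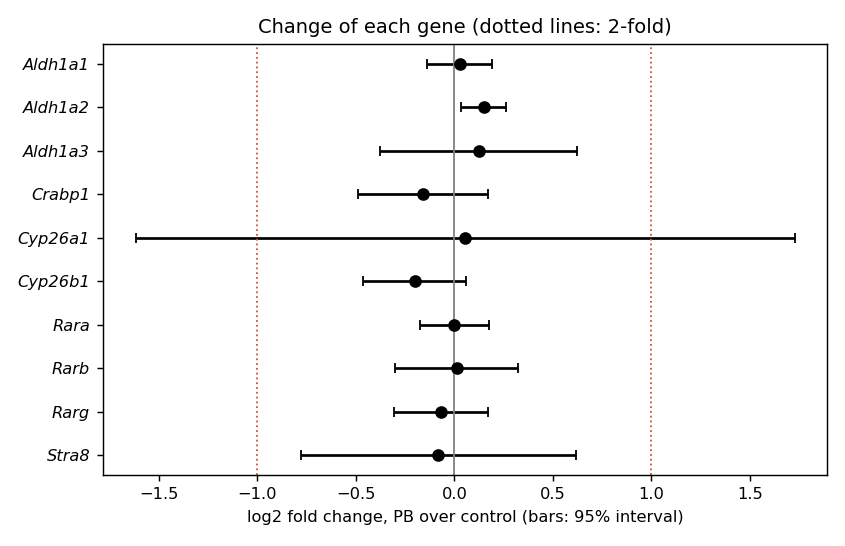
Log2 fold change of PB over control for each of the 10 genes (points) with the 95% interval of the edgeR fit (bars), 3 pools per group; dotted lines mark a 2-fold change. The interval of *Aldh1a2* (0.04 to 0.26) is the one that does not include 0, and the interval of *Cyp26a1* (-1.62 to 1.73) is the widest.

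Levels differed widely between the genes on a per-length scale (TPM, a length-corrected abundance from counts and exon lengths). *Aldh1a1* was highest, with a mean of 266 TPM over the 6 pools (range 250.4 to 308). *Aldh1a2* (110 TPM, 92.5 to 129) and *Stra8* (99.3 TPM, 61.3 to 132) followed, and their ranges overlapped. *Crabp1* had 45.6 TPM, *Rara* 33.6 TPM and *Rarg* 11.8 TPM, each with a range apart from the next. *Aldh1a3* (5.26 TPM, 4.54 to 7.40) and *Rarb* (4.47 TPM, 3.85 to 5.10) could not be ordered. *Cyp26b1* had 1.69 TPM and *Cyp26a1* 0.218 TPM, so both degrading enzymes were at the bottom of the order.

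**Figure D2:**
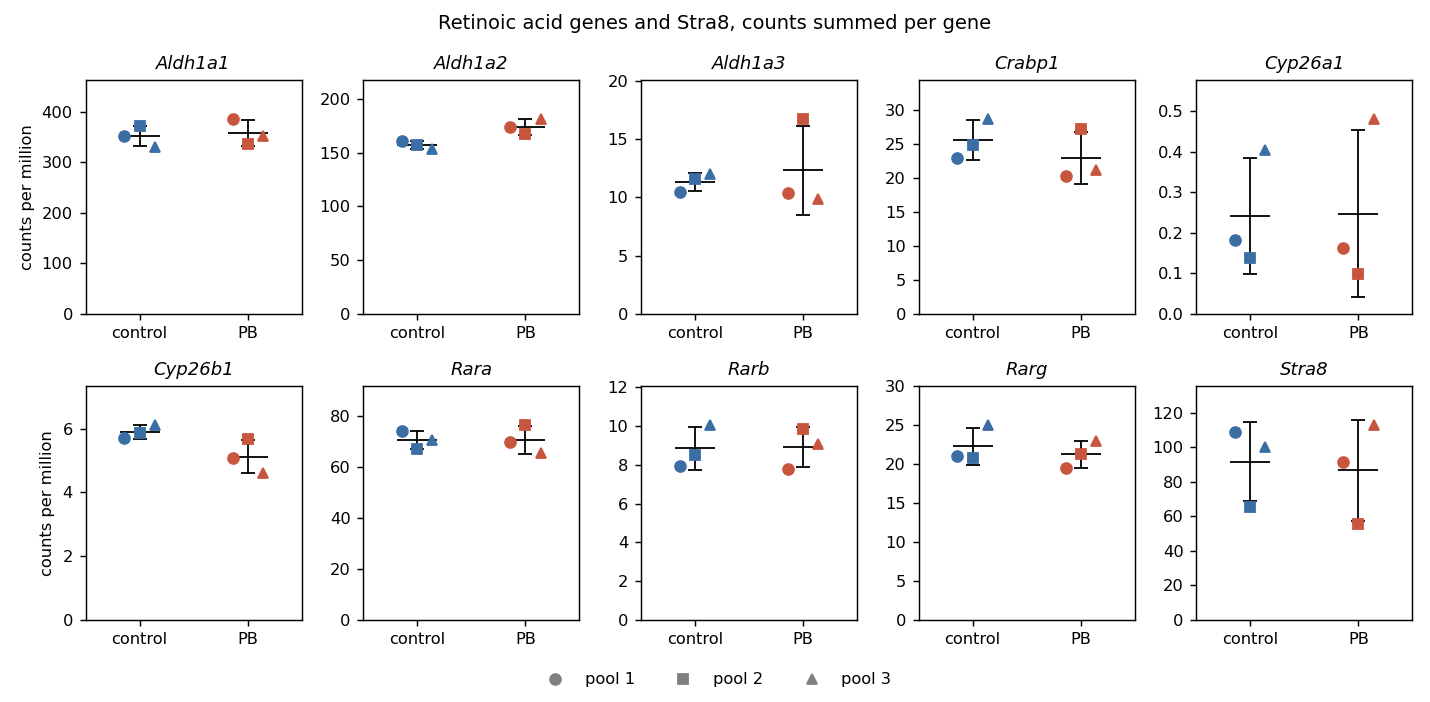
Normalized counts (CPM, counts scaled to the library size) of each gene in the 3 control (blue) and 3 PB (red) pools, with the pool number as the symbol; black lines are the group mean and 1 SD (n = 3), and each panel has its own axis from 0. All PB pools lie above all control pools for *Aldh1a2* and below them for *Cyp26b1*, and pool 2 is the lowest of its group for *Stra8*.

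Promoter windows of RefSeq (GRCm38.p6, the mm10 assembly) were available for 9 of the 10 genes, in 14 windows of 250 bases before an annotated start. *Aldh1a3* was not in that table. The windows were searched on both strands for direct repeats of hexamers with the letters AGGTCA, or AGTTCA, or GGGTCA, or GGTTCA, the arrangement that RAR and RXR partners are known to bind. With a spacing of 5 bases (DR5), the repeat stood in 0.0883% of all 32851 windows, and in the windows of *Rarb* and *Cyp26a1* among the 10 genes. No window of these genes held a repeat with a spacing of 1 (DR1, 0.164% of all windows) or 2 bases (DR2, 0.174%). The *Stra8* window shown held the hexamer AGGTCA in 2 places and no such repeat. This hexamer was in 14.0% of all windows, and a *Rarg* window held it on the opposite strand. The windows that carry these letters are given below 5′ to 3′ along the gene, with the repeat (*Rarb*, *Cyp26a1*) or the hexamer (*Stra8*) in capitals. They end at the base before the start, and lie on chr14:16575477-16575726 (minus strand), chr19:37697558-37697807 (plus strand) and chr6:34920698-34920947 (plus strand).
Rarb: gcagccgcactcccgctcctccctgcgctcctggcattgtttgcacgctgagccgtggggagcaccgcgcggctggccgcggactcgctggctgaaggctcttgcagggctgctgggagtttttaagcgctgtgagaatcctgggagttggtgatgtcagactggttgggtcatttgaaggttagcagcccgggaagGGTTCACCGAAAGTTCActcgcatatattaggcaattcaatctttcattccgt
Cyp26a1: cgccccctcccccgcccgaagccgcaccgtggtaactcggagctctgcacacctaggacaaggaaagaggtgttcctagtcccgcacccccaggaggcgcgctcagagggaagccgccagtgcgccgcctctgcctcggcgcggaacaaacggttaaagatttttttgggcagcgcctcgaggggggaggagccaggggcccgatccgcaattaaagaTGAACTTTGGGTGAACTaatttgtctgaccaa
Stra8: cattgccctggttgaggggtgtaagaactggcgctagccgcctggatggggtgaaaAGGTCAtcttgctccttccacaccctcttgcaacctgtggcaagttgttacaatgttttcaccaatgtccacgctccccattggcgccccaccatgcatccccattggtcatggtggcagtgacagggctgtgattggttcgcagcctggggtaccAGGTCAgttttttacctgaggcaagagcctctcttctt
The *Rarb* repeat covers bases -53 to -37 and the *Cyp26a1* repeat bases -32 to -16, counted back from the start, the latter read on the opposite strand. These are matches of letters only.

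Among the synthesizing enzymes, *Aldh1a2* showed the smallest spread. *Aldh1a2* (mm10 chr9:71215334-71296243, plus strand) had 161, 157 and 153 CPM in control pools 1 to 3 and 174, 167 and 182 CPM in PB pools 1 to 3. Every PB pool was above every control pool, which was the case for 5.10% of all genes. Control pools averaged 157 ± 3.96 CPM and PB pools 174 ± 7.35 CPM (SD, n = 3). The log2 fold change was 0.15 with a standard error of 0.05, and its 95% interval was 0.04 to 0.26 (FDR = 0.888, edgeR). With single pools left out, its log2 fold change stayed between 0.12 and 0.18, and the unadjusted p was under 0.05 in 2 of the 6 fits. The summed level of the 5 surface epithelium markers, all detected, ran from 221 to 291 CPM in control pools and from 290 to 371 CPM in PB pools, with *Lrrn4* at a log2 fold change of 0.63. The part of that cell layer in the *Aldh1a2* difference was not tested. In a bulk library fewer cells of a type and less RNA per cell cannot be told apart, which holds for every level given here.

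*Aldh1a1* (chr19:20601982-20643462, plus strand), the most abundant of the 3 dehydrogenases, had 353, 372 and 331 CPM in control pools and 387, 337 and 352 CPM in PB pools. The groups overlapped, with PB pool 1 highest and control pool 3 lowest. Its log2 fold change was 0.03 with a standard error of 0.07 (FDR = 0.950, edgeR), and the interval was -0.14 to 0.19. *Aldh1a3* (chr7:66390892-66427477, minus strand) had 10.4, 11.5 and 12.0 CPM in control pools and 10.4, 16.8 and 9.86 CPM in PB pools. PB pool 2 stood above the other 5 pools, which lay close together. Its log2 fold change was 0.12 with a standard error of 0.21 (FDR = 0.924), and without PB pool 2 it was -0.16.

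*Crabp1*, the cellular retinoic acid binding protein 1 (chr9:54764748-54773110, plus strand), had 22.9, 24.9 and 28.7 CPM in control pools and 20.2, 27.2 and 21.1 CPM in PB pools. PB pools 1 and 3 were below all control pools and PB pool 2 was within them. The log2 fold change was -0.16 with a standard error of 0.14 (FDR = 0.888, edgeR). It lay between -0.30 and -0.07 with single pools left out.

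The enzymes that break retinoic acid down were measured at low levels. *Cyp26b1* (chr6:84571414-84593908, minus strand), the enzyme known to hold back meiosis in the fetal testis, had 5.69, 5.88 and 6.12 CPM in control pools and 5.09, 5.67 and 4.61 CPM in PB pools. Each PB pool was below each control pool, although PB pool 2 and control pool 1 nearly met, and 5.61% of all genes showed this order. The log2 fold change was -0.20 with a standard error of 0.11 (95% interval -0.47 to 0.06, FDR = 0.888, edgeR). Its sign was negative in all 14 alternative analyses, from -0.28 to -0.13. *Cyp26a1* (chr19:37697732-37701536, plus strand) had 18, 16 and 38 counts in control pools and 16, 10 and 56 counts in PB pools. The third pool was the highest of each group. The interval of its log2 fold change, -1.62 to 1.73, allows a 3-fold change in either direction. The CPM values varied by 59.0% (control) and 83.3% (PB) of their mean between pools. The predicted transcript XM_017318053.1 had 38 counts in PB pool 3 and 0 elsewhere.

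The log2 fold changes of the receptors lay between -0.07 and 0.01. *Rara* (chr11:98927813-98974942, plus strand) had 74.0, 67.0 and 70.8 CPM in control pools and 69.8, 76.5 and 65.4 CPM in PB pools. The means were 70.6 ± 3.51 and 70.6 ± 5.61 CPM (SD, n = 3), and the interval of the fold was 0.886 to 1.13 (FDR = 1.000, edgeR). *Rarb*, whose own promoter is a classical target of the pathway (chr14:16430839-17082331, minus strand), had 7.95, 8.52 and 10.1 CPM in control pools and 7.79, 9.84 and 9.08 CPM in PB pools. The values were mixed between the groups, with a log2 fold change of 0.01 and a standard error of 0.13 (FDR = 0.993). *Rarg* (chr15:102234938-102257522, minus strand) had 21.1, 20.8 and 25.1 CPM in control pools and 19.5, 21.3 and 23.0 CPM in PB pools. Here too the groups overlapped, with a log2 fold change of -0.07 and a standard error of 0.10 (FDR = 0.910).

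*Stra8* (chr6:34920163-34939344, plus strand) had 109, 65.6 and 100.3 CPM in control pools and 91.5, 55.4 and 113 CPM in PB pools. Pool 2 was the lowest of both groups, and the other 4 pools overlapped across treatment. Control pools averaged 91.7 ± 23.0 CPM and PB pools 86.6 ± 29.1 CPM (SD, n = 3), with a log2 fold change of -0.08, a standard error of 0.29 and an interval of -0.78 to 0.62 (FDR = 0.969, edgeR). A fold between 0.583 and 1.53 was within this interval. The difference was 0.06 without control pool 1, 0.16 without PB pool 2 and -0.32 at the other end of the range, so its sign depended on single pools.

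Germ cell markers were compared with *Stra8* pool by pool. The sum of the 7 germ cell markers, all detected, was 733, 560.0 and 728 CPM in control pools and 813, 481 and 851 CPM in PB pools, with both pools numbered 2 lowest. *Ddx4*, a germ cell RNA helicase, had 122, 89.7 and 130.3 CPM in control pools and 124, 77.7 and 132 CPM in PB pools. Across the 6 pools the log2 level of *Stra8* had a Pearson r of 0.970 with *Ddx4* and 0.964 with *Dazl*, the germ cell RNA-binding factor, as a description of libraries in which depth and cell makeup are shared by all genes. With the other 5 germ cell markers r was lower: 0.847 for *Mael*, 0.763 for *Tex11*, 0.725 for *Sycp3*, 0.535 for *Dppa3* and 0.532 for *Pou5f1*. The 5 genes most like *Stra8* by this measure, out of 12185 with a mean of at least 5 CPM, were *Elavl2* (0.998), *Bpnt1* (0.996), *Rpl39l* (0.991), *Uqcrq* (0.990) and *Nr6a1* (0.989). *Aldh1a3* ran the other way, at -0.826.

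*Stra8* was also set against the 2 germ cell markers closest to it. Its ratio to the geometric mean of *Ddx4* and *Dazl*, a measure chosen after these correlations were seen and so bound to vary less, was 0.573, 0.477 and 0.514 in control pools and 0.472, 0.454 and 0.565 in PB pools. The groups overlapped, with means of 0.521 ± 0.0480 and 0.497 ± 0.0594 (SD, n = 3, two-sided exact permutation p = 0.50; the smallest p that 3 against 3 pools allow is 0.10). *Gm4969*, for which RefSeq also lists the name Meiosin, the partner of STRA8, had ratios of 0.414, 0.471 and 0.382 in control pools and 0.563, 0.486 and 0.613 in PB pools. Its PB pools were all above its control pools (exact permutation p = 0.10, 0.333 after adjustment over the 5 ratios tested). On the CPM scale *Gm4969* had 78.9, 64.8 and 74.5 in control and 109, 59.3 and 123 in PB pools, and its groups overlapped (log2 fold change 0.42, FDR = 0.888, edgeR). The ratios of *Rec8*, a meiotic cohesin subunit, *Sycp3*, a component of the chromosome axis, and *Dmrt1* gave exact permutation p of 0.40, 0.20 and 0.20.

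**Figure D3:**
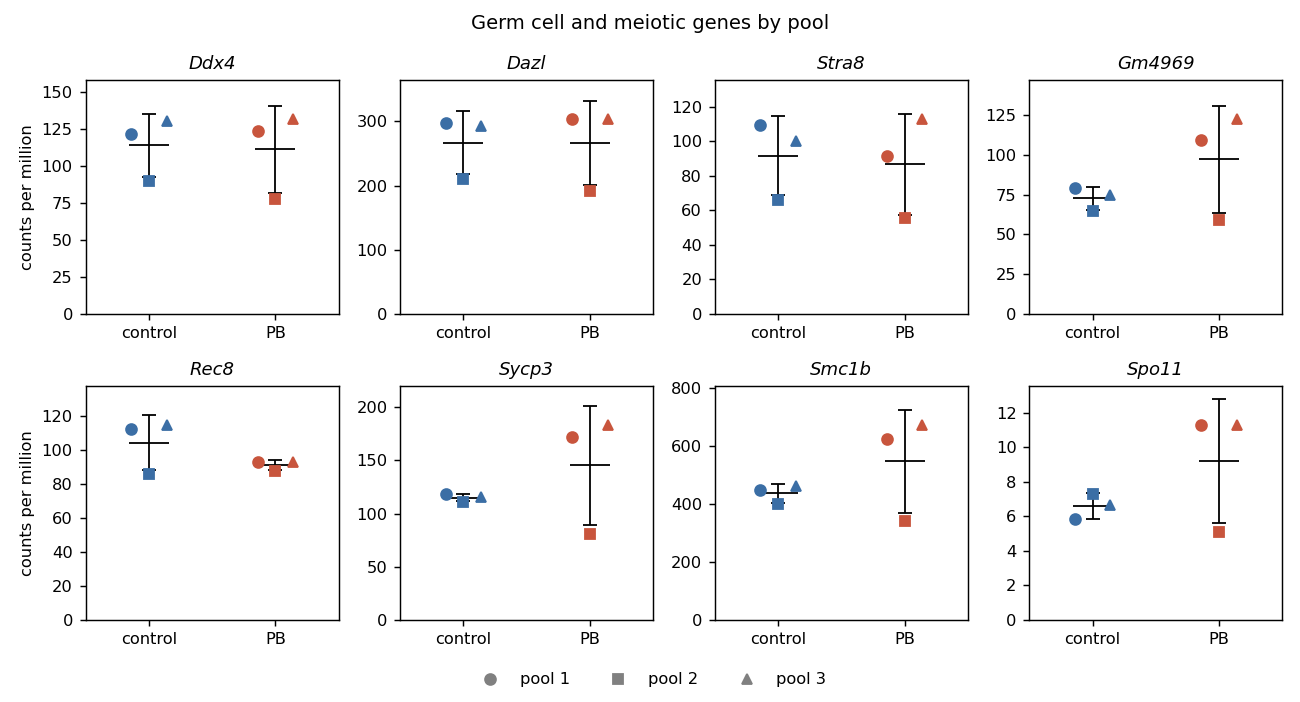
CPM of germ cell markers (*Ddx4*, *Dazl*), *Stra8*, *Gm4969* and genes of meiotic chromosomes in the 3 control (blue) and 3 PB (red) pools; symbols give the pool number, black lines the group mean and 1 SD (n = 3). PB pool 2 is the lowest PB pool in every panel. PB pools 1 and 3 both exceed all control pools for *Gm4969*, *Sycp3*, *Smc1b* and *Spo11*. They do so narrowly for *Dazl*, at 304 CPM each against at most 298 CPM in control pools. For *Stra8* and *Ddx4*, PB pool 1 lies within the control range.

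The genes of a meiotic entry list, which joins regulators with the chromosome components *Rec8* and *Sycp3*, did not pass the thresholds either. Of them, 15 were in the count table, 14 were tested and 0 were called, against 0.0154% of all genes. There were 6 higher and 8 lower, with a median log2 fold change of 0.00. *Dmrt1*, a transcription factor known to act upstream of *Stra8* in the fetal ovary, had 16.9, 10.1 and 16.6 CPM in control pools and 10.3, 9.41 and 10.5 CPM in PB pools. Control pool 2 was as low as the PB pools, so the groups overlapped, with a log2 fold change of -0.52 and a standard error of 0.20 (unadjusted p under 0.05, FDR = 0.888, edgeR). *Sycp3*, the highest of this list per length at 147 ± 11.7 TPM in control and 202 ± 83.4 TPM in PB pools, had 118, 111 and 116 CPM in control pools and 172, 81.2 and 184 CPM in PB pools. *Rec8*, which is known to depend on retinoic acid in these cells, had 112, 85.7 and 115 CPM in control pools and 92.7, 87.4 and 92.4 CPM in PB pools. PB pools 1 and 3 thus had high *Sycp3* but a *Rec8* level between that of the control pools.

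The 16 early prophase genes, which build the axis, the synaptonemal complex and the recombination machinery, split by pool. All 16 had a positive log2 fold change (0.15 to 0.48, median 0.32), as had 9849 of the 19435 genes tested. Of the 16, 0 were called and 0 had an unadjusted p under 0.05 (edgeR), against 0.0154% and 4.46% of all genes. In PB pool 1 all 16 were above all control pools (27.0% of all genes tested were), and in PB pool 3 all 16 were above them as well (31.7% of all genes). In PB pool 2 all 16 were below all control pools (28.0% of all genes). *Smc1b*, a meiotic cohesin subunit and the highest of these per length (158 ± 20.0 TPM in control, 215 ± 76.6 TPM in PB pools), had 448, 399 and 462 CPM in control pools and 626, 343 and 674 CPM in PB pools. *Spo11*, which makes the meiotic double-strand breaks, had 5.82, 7.32 and 6.68 CPM in control pools and 11.3, 5.06 and 11.3 CPM in PB pools. *Stra8* followed this split in part. PB pool 2 (55.4 CPM) was below all control pools and PB pool 3 (113 CPM) above them. PB pool 1 (91.5 CPM) was within the control range. The germ cell marker sum, which includes *Sycp3*, was also above all control pools in PB pools 1 and 3. In PB pool 2 it was below them. Among control pools the sum was lowest in pool 2, as were most of the 16 genes, *Smc1b* among them, while *Spo11* was highest there. The part of this sum in the prophase levels was not tested.

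Of the genes that carry and convert retinoids, 13 of 16 were tested and 0 were called, against 0.0154% of all genes. Of the 13, 3 were higher and 10 lower, with a median log2 fold change of -0.05. Over all 19435 genes tested, 9849 were higher and 9586 lower, which is the background for the lists below as well. *Adh1*, an alcohol dehydrogenase that can oxidize retinol, had 4.10, 4.64 and 4.62 CPM in control pools and 3.08, 3.88 and 3.25 CPM in PB pools. The PB pools were all below the control pools, with a log2 fold change of -0.39 and a standard error of 0.13 (unadjusted p under 0.05, FDR = 0.888, edgeR). *Fabp5*, a fatty acid binding protein that can carry retinoic acid and the highest of the list per length, had 50.9 ± 9.31 TPM in control and 53.0 ± 8.16 TPM in PB pools (SD, n = 3).

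Of the 9 receptor partners and cofactors, all were tested, 0 were called (0.0154% of all genes were), 7 were higher and 2 lower. The coactivator *Ncoa1* had 73.9, 71.7 and 72.4 CPM in control pools and 80.8, 76.7 and 78.3 CPM in PB pools. The groups did not overlap, with a log2 fold change of 0.11 and a standard error of 0.04 (unadjusted p under 0.05, FDR = 0.888, edgeR). *Nrip1*, a ligand-dependent corepressor, was highest per length, at 124 ± 8.55 TPM in control and 136 ± 3.65 TPM in PB pools, and its CPM, the scale tested, overlapped between the groups (log2 fold change 0.07, FDR = 0.893, edgeR). Of 12 genes known to respond to retinoic acid, 11 were tested, 0 were called (0.0154% of all genes were), 7 were higher and 4 lower. *Rarres1*, a retinoic acid receptor responder, had 1.71, 1.87 and 1.35 CPM in control pools and 2.19, 2.23 and 2.33 CPM in PB pools. Its PB pools were all higher, with a log2 fold change of 0.45 and a standard error of 0.17 (unadjusted p under 0.05, FDR = 0.888). *Tgm2*, a transglutaminase, was highest per length in this list, with 76.1 ± 2.26 TPM in control and 88.4 ± 4.84 TPM in PB pools. Its CPM, the scale tested, overlapped between the groups (log2 fold change 0.10, FDR = 0.888, edgeR).

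**Figure D4:**
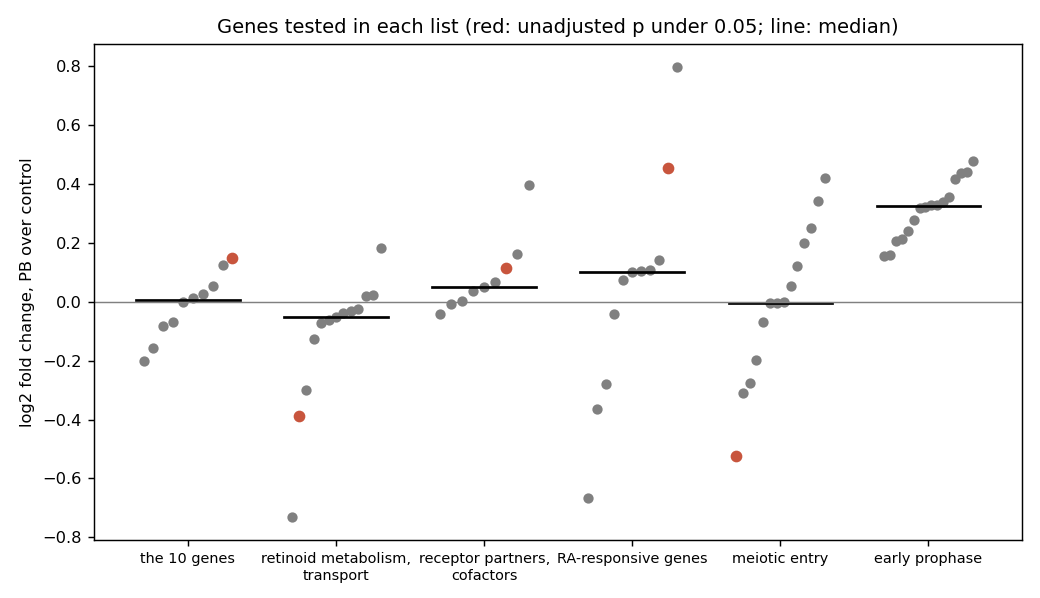
Log2 fold change of PB over control (edgeR) for the tested genes of the 10 and of 5 lists, one point per gene, with the list's median as a line and unadjusted p under 0.05 in red. The early prophase genes are all above 0 (median 0.32), and 4 genes of the other lists, *Adh1*, *Ncoa1*, *Rarres1* and *Dmrt1*, are red beside *Aldh1a2*.

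Transcripts were compared next, since several of these genes have alternative starts. Of 36 transcripts, 34 had a count, 23 were tested by edgeR and 0 were called, against 0.0332% of 51227 transcripts tested; 0 had an unadjusted p under 0.05, against 3.56% of all. DESeq2 tested 32, called 0 (1.61% of its 72572 were called) and gave 1 an unadjusted p under 0.05, against 7.17% of all. This was XM_011241300.2 of *Cyp26b1* (FDR = 0.563 by DESeq2, log2 fold change -0.23 and FDR = 1.000 by edgeR). It starts at chr6:84587732, inside the gene, and held 93.0% of the *Cyp26b1* counts. NM_175475.3, from the upstream start, held 6.19%.

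The counts of *Aldh1a2* were divided between its starts in one pool in a way not seen in the others. The assembled transcript MSTRG.18913.1, from a start at position 71215334, held 81.5% of the counts in control pool 3 and 0.290%, 0.426%, 0.364%, 0.392% and 0.237% in control pools 1 and 2 and PB pools 1, 2 and 3. The RefSeq transcript NM_009022.4, from position 71215789, held the rest. The sum over both, 153 CPM in control pool 3, was near the other control pools. With transcripts that match RefSeq alone, which leaves out most of the counts of control pool 3, the log2 fold change of *Aldh1a2* was 0.59.

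*Rara* had 3 transcripts of 10% or more of its counts, and their shares fell in a pair of patterns that crossed the groups. XM_006532592.3, from the most upstream start (position 98927813), held 33.2%, 70.8% and 75.5% in control pools and 34.1%, 35.9% and 77.1% in PB pools. Control pools 2 and 3 and PB pool 3 were thus high, and the other 3 pools were low. The start at position 98937696, which is nearly all NM_009024.2, took the opposite course, with 39.0%, 15.2% and 9.28% in control pools and 39.8%, 43.4% and 9.66% in PB pools. NM_001176528.1, from position 98960471, held 26.3%, 12.5% and 15.1% in control pools and 25.4%, 19.3% and 13.2% in PB pools. The summed *Rara* level was 67.0, 70.8 and 65.4 CPM in the 3 pools with a high upstream share and 74.0, 69.8 and 76.5 CPM in the other 3.

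*Rarb* counts came from the downstream start at position 16575476, the start behind the promoter shown above with the repeat, where NM_011243.2 held 92.4%. The 2 transcripts from position 17082331 had 0 counts in every pool. For *Rarg*, NM_001042727.2 from position 102246500 held 57.2%, 67.8% and 64.0% in control pools and 58.8%, 67.4% and 65.1% in PB pools. The other *Rarg* transcripts of 10% or more, NM_011244.4 (22.4%) and XM_006520650.1 (14.0%), share the start at position 102257522. NM_011244.4 held 19.4%, 24.7% and 12.6% in control pools and 41.2%, 32.6% and 9.11% in PB pools. XM_006520650.1 held 23.4%, 7.41% and 23.4% in control pools and 0%, 0% and 25.8% in PB pools, so the split between them differed from pool to pool within both groups. For *Stra8*, NM_009292.1 held 66.5% and the assembled MSTRG.14915.3 held 27.9% of the counts. Both start at position 34920960, a few bases past the end of the window shown above (34920947). Neither differed by more than its error (log2 fold changes of -0.11 and 0.01, FDR = 1.000 for both, edgeR). *Aldh1a1*, *Aldh1a3* and *Crabp1* had 1 leading transcript each: NM_013467.3, NM_053080.3 and NM_013496.3. NM_007811.2 held all *Cyp26a1* counts in 5 pools and 32.1% in PB pool 3, where XM_017318053.1 held 67.9%.

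**Figure D5:**
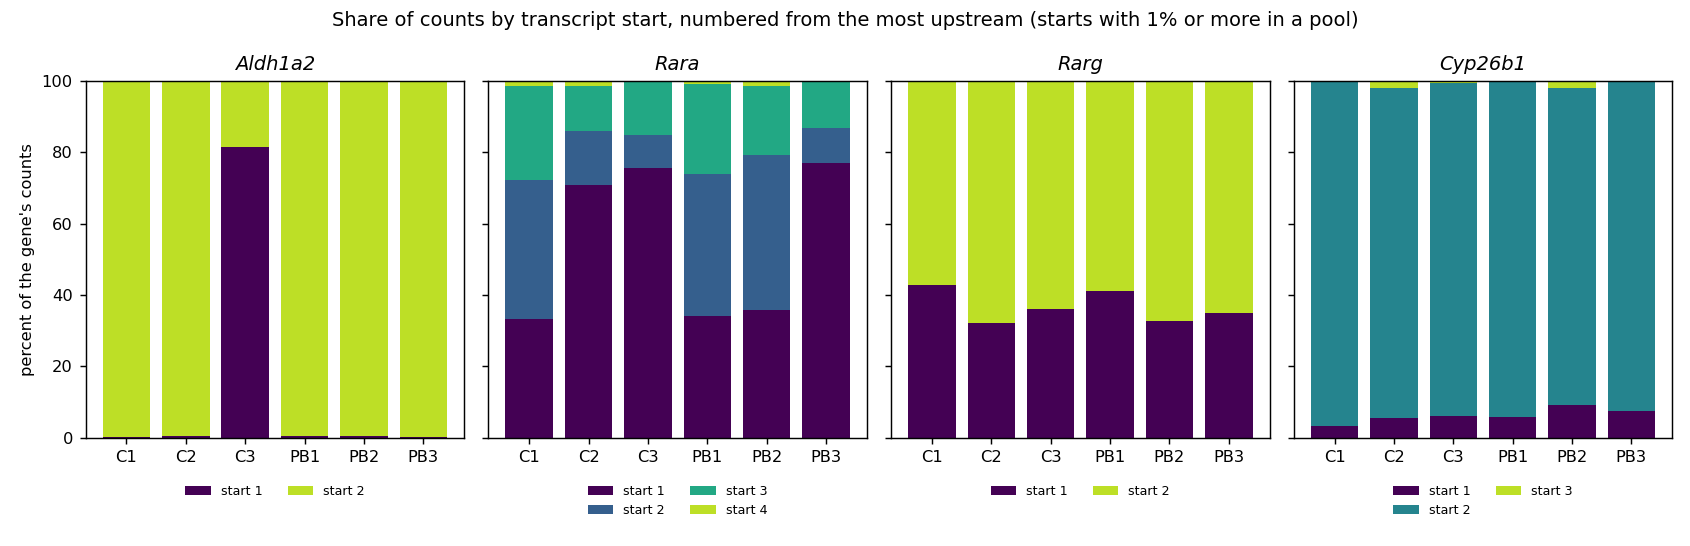
Share of each gene's counts (percent, 0 to 100) by transcript start in control pools 1 to 3 (C1 to C3) and PB pools 1 to 3 (PB1 to PB3), starts numbered from the most upstream and shown where they reach 1% in a pool. Start 1 of *Aldh1a2* holds 81.5% in control pool 3 and under 1% in the other 5 pools, and start 1 of *Rara* is high in control pools 2 and 3 and PB pool 3.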

How the data were processed

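Count values were used as deposited: the authors aligned stranded paired-end reads to mm10 with HISAT2 2.1.0, built a merged RefSeq-guided transcript set (StringTie 1.3.5), and derived transcript counts with prepDE (versions from the submitters' processing notes). A second deposited table gave names, positions and class codes. Its DESeq2 1.30.0 comparison columns were not used. The deposited positions of exons, in bases (other unit), gave transcript lengths.

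Counts were summed per gene name, and edgeR 4.0.16 (R 4.3.3) was fitted to all genes: TMM scaling, filterByExpr with a minimum count of 10 and total of 15, quasi-likelihood test by group, Benjamini-Hochberg FDR over 19435 genes. Calls needed a fold change of at least 2 and FDR of at most 0.05. DESeq2 1.42.0 was an alternative. CPM used TMM library sizes, and TPM used counts and exon lengths. Exact permutation tests were run in Python 3.11.15. Scripts were tested on simulated data.

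Named were all 10 genes, their transcripts with at least 10% of the gene's counts or called, in each list the genes called or at unadjusted p under 0.05 and the highest per length, and the 5 genes most correlated with *Stra8*. Other genes shown were chosen after their values were seen. The members and lists were chosen with earlier results of these data known. The study calls the pools biological replicates. Whether each came from separate litters is not given for these pools, so p-values measure the spread between pools, which may be technical. prepDE counts derive from coverage, and a read shared by overlapping transcripts is divided among them, so the split between starts is an estimate. Transcripts on the opposite strand held 0.260% of *Stra8* and 0.0345% of *Aldh1a1* counts.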

Additional observations from a re-analysis of the deposited data

How the results depend on the processing

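Among the 10 genes and the genes of the lists, 0 were called under each alternative. The same held for transcripts of the 10 genes under the alternatives run for them. The alternatives were DESeq2, its size factors in edgeR, no filter, a stricter filter and an FDR of at most 0.1 (genes only). Others left out single pools or both pools numbered 2 (genes only), or used the replicate number as a block. Of 140 alternative fold changes of the 10 genes, 121 kept their sign and side and 19 changed sign, and those 19 concerned 7 genes. *Aldh1a2*, *Cyp26b1* and *Crabp1* changed sign in 0 of 14 alternatives. With single pools left out, log2 fold changes ran from -0.0356 to 0.0695 for *Aldh1a1*, -0.16 to 0.26 for *Aldh1a3*, -0.88 to 0.63 for *Cyp26a1*, -0.0625 to 0.0516 for *Rara*, -0.0669 to 0.11 for *Rarb*, -0.13 to 0.0168 for *Rarg* and -0.32 to 0.16 for *Stra8*. With both pools numbered 2 left out, which was added after seeing the data, *Aldh1a3* had -0.14 and *Rarb* -0.0918. The cause was not tested.

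Deviations of same-numbered pools correlated at 0.079, 0.223 and 0.043 over 14782 genes. PB pools 1 and 2 each correlated best with the control pool of their own number, and PB pool 3 with control pool 1 (0.153). Whether the numbers pair the pools is thus unsettled, and they were not taken to do so in the main fit. With the replicate block, 0 genes and 0 transcripts were called, against 3 and 17 without it. *Cyp26a1* had a log2 fold change of -0.10 and *Stra8* of -0.11 with a standard error of 0.10, and 1 of the 10 genes had an unadjusted p under 0.05. *Cyp26a1* had 10 to 56 counts per pool, and the fitted spread between pools was 57.8% for it and 25.7% for *Stra8* (biological coefficient of variation).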

Other observations

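Some genes of the lists stood apart in a single pool. *Hoxa5*, a homeobox gene known to respond to retinoic acid, had 4.30, 5.59 and 0.340 CPM in control pools and 5.01, 6.88 and 5.93 CPM in PB pools, so control pool 3 was low. *Max*, the partner of MGA in the repression of meiotic genes, had 55.8, 61.4 and 55.0 CPM in control pools and 23.1, 57.0 and 58.6 CPM in PB pools, so PB pool 1 was low. *Rbp4*, the plasma retinol carrier, had 22.5, 8.62 and 3.33 CPM in control pools and 8.65, 8.79 and 10.6 CPM in PB pools, and *Ttr*, its partner in plasma, had 34.5, 13.6 and 3.79 CPM in control pools and 9.48, 8.87 and 12.9 CPM in PB pools. Both were highest in control pool 1 and lowest in control pool 3.

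The germ cell markers did not move as one. *Pou5f1*, a pluripotency factor kept in germ cells before meiosis, had 30.6, 18.3 and 30.7 CPM in control pools and 17.0, 17.6 and 18.6 CPM in PB pools (log2 fold change -0.58, FDR = 0.888, edgeR). *Dppa3*, another gene of early germ cells, had 20.1, 11.9 and 21.6 CPM in control pools and 12.2, 12.5 and 12.8 CPM in PB pools (log2 fold change -0.52, FDR = 0.888, edgeR). Control pool 2 lay at the level of the PB pools for both, as it did for *Dmrt1*. Both had an unadjusted p under 0.05 and neither passed the FDR threshold.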
